A study of Mus musculus with 18 samples.

Results

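Blood endothelial cells line the arteries, capillaries and veins of the bladder wall. In the 8 droplet libraries they were chosen as barcodes with at least 500 unique molecular identifiers (UMIs, each standing for 1 captured transcript) that met 3 limits. The 8 genes Pecam1, Cdh5, Kdr, Flt1, Egfl7, Emcn, Plvap and Ptprb had to give at least 4 UMIs together and at least 0.15% of the cell's UMIs, and the lymphatic genes Prox1, Mmrn1 and Flt4 at most 1 UMI. The rule found 1066 cells among 38761 barcodes, or 2.75% (95% Clopper-Pearson interval 2.59 to 2.918%, counting error only).

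The series is an atlas of the bladder of C57BL/6 mice. Whole bladders were taken from 3 males of 22 months, from 3 males of 3 months, from 2 females and 2 males of 12 months (2 libraries), and from 2 females and 2 males of 24 months. Nuclei were prepared from whole bladders of 12-month mice, 2 of each sex. The muscle layer of 3 females of 14 months gave the detrusor-only library. Another 4 mice of that age, 2 of each sex, gave a library labelled whole bladder (detrusor enriched). It is called detrusor enriched below, and the 2 together the detrusor libraries. Frozen sections on spatial capture slides came from 4 males of 22 months (2 sections) and 4 males of 14 months (2 sections), and 3 intact and 3 dissociated bladder samples of 12-month females gave bulk RNA. No treatment other than the preparation of the tissue distinguishes the groups in the labels. Animals were pooled in the droplet libraries, so the values below describe libraries and the p-values measure only the spread between them. Nothing in the labels says which bulk samples came from separate animals, and the same limit holds there.

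An endothelial cell is held to its neighbours by VE-cadherin (Cdh5) and PECAM-1 (Pecam1), rests on a basement membrane of laminin and type IV collagen, and reads vascular endothelial growth factor through Kdr and Flt1. Along the vascular tree the cells differ: arterial cells use Notch signalling and gap junction proteins, capillary cells take up fatty acids and exchange water and gases, and venous cells carry the selectins and receptors that let leukocytes leave the blood. Shear stress, injury and the digestion of a tissue are all known to switch on immediate early genes such as Fos and Jun within these cells.

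The chosen cells made up 2.148% of the barcodes in the 22-month male library (195 of 9080, 95% interval 1.859 to 2.467%) and 2.697% in the 3-month male library (172 of 6378, 2.313 to 3.124%). In the first 12-month library they made up 0.6947% (21 of 3023, 0.4305 to 1.06%), in the second 0.3918% (4 of 1021, 0.1068 to 1%), and in the 24-month library 0.6824% (22 of 3224, 0.4281 to 1.031%). The nuclei library held 2.131% (74 of 3472, 1.677 to 2.668%). The 2 detrusor libraries held the largest shares, 5.125% in detrusor only (328 of 6400, 4.598 to 5.694%) and 4.056% in detrusor enriched (250 of 6163, 3.578 to 4.579%). The intervals of the 3 mixed-sex whole-bladder libraries lay below those of the other 5 libraries. Depth differed between the libraries too: the median UMIs of a chosen cell ran from 817 in the nuclei to 6439 in the second 12-month library, and those of the other cells from 1142 to 15118. The part of depth and dissociation in the share was not tested.

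**Figure D1:**
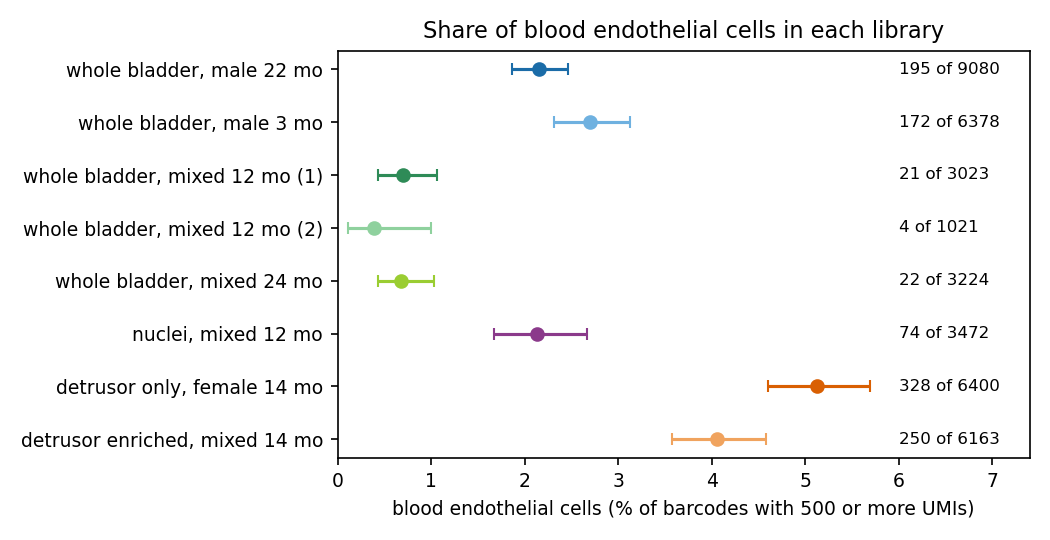
Share of barcodes (x axis, percent) that met the blood endothelial rule in each of the 8 droplet libraries (y axis), with exact 95% binomial intervals as bars. The detrusor-only library is highest at 5.125%, and the 12-month and 24-month whole-bladder libraries lie at 0.6947% or below.

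Of the 38761 barcodes, 108 sequences occurred in more than 1 library, and 6 chosen cells carried such a sequence. Doublets were scored but not removed: the caller marked 24, 13, 26 and 18 chosen cells in the 22-month male, 3-month male, detrusor-only and detrusor-enriched libraries, 1 in the nuclei and 0 elsewhere. Genes of other cells made up at least 5 UMIs and 2% of the UMIs in 19, 9, 14 and 4 chosen cells of the first 4 and in 5 nuclei. The summed UMIs of the chosen cells ran from 25852 in the second 12-month library to 2544835 in detrusor only, so values rest on very unequal depth. The summed level of 7 fibroblast genes in the chosen cells ran from 0 CPM (UMIs of a gene scaled to one fixed total over the 26347 genes common to the 8 tables) in the second 12-month library to 8552 in the 22-month male library, below the other cells of the same library in all 8. The summed level of 7 macrophage genes was 2665 CPM in the 22-month male library and 0 to 305.8 elsewhere. The red cell genes summed to 5744 CPM in the 24-month library, all from 1 of its 22 chosen cells, and to 0 to 1108 elsewhere. Smooth muscle genes summed to 40.74 to 380.3 CPM in the whole-bladder cells, 1243 and 1893 in the detrusor libraries and 10718 in the nuclei, where the other nuclei stood at 21503.

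The cells at the edge of the rule differed between libraries. In the 22-month male library, 12 chosen cells lay just inside the limits (exactly 4 UMIs of the rule's genes, or a share close above 0.15%) and carried 8945 CPM (here scaled by all UMIs of the cells) of 25 further endothelial genes, while the 24 barcodes just outside (3 UMIs, or a share from 0.10% to 0.15%) carried 6207. The chosen cells of that library as a whole carried 11462 and the other cells 880.7. In the 3-month male library the 14 cells just inside stood at 6918 and the 23 just outside at 4771. In the nuclei (15 inside, 17 outside), detrusor only (22 and 29) and detrusor enriched (16 and 15) the pairs were 4501 and 4353, 3851 and 3658, and 3508 and 2923. In these 3 libraries the values inside and outside the limit lay closer together than in the 2 male libraries. The lymphatic limit removed 31, 10, 2, 0, 1, 12, 156 and 131 barcodes in the 22-month male, 3-month male, first and second 12-month, 24-month, nuclei, detrusor-only and detrusor-enriched libraries. Of these, 19 and 17 in the 2 detrusor libraries were removed by Flt4 alone, a receptor of lymphatic and some blood vessels, and they carried 10445 and 8002 CPM of the 25 endothelial genes.

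The genes that chose the cells are given as a description, because the rule used them. In the same order of libraries, Pecam1 stood at 966.4, 1063, 643.9, 1019, 858, 1675, 1097 and 1112 CPM in the chosen cells and at 2.681 to 34.95 CPM in the other cells. Cdh5 stood at 331.7, 355.7, 381.8, 611.1, 629.2, 262.1, 601.2 and 676.6 CPM. Both junction genes varied by less than 3 times over the 8 libraries. Egfl7, a secreted factor of the vessel wall, stood at 1801, 1868, 876, 774.1, 825.3, 2912, 1691 and 1143 CPM, highest in the nuclei. Plvap, which forms the diaphragms of fenestrae and caveolae, stood at 2336, 2334, 913.4, 733.4, 694.5, 407.7, 713.3 and 739.9 CPM, highest in the 2 male libraries and lowest in the nuclei. Kdr ran from 142.3 to 422.7 CPM, Flt1 from 464.2 to 1354, Emcn from 498.4 to 1292 and Ptprb, an endothelial phosphatase, from 348.8 to 1366. All 8 were higher than in the other cells of every library, which the choice of cells fixes. The 4 markers of the label (Pecam1, Cdh5, Egfl7, Plvap) are among the 8 and give no independent check of it.

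The label was set beside the endothelial core list, which holds none of the rule's genes. Of 8642 genes with a mean of at least 10 CPM in the chosen cells, the rule's own included, 873 (10.1%) were higher in the chosen cells than in the other cells of all 8 libraries and 311 (3.6%) were more than doubled in all 8. The filter lets a gene in where the chosen cells are high, so these shares are given as a background only. The cells were chosen by their counts, and no test was made of this contrast. Of the 25 endothelial core genes, 23 were higher in all 8 libraries and 22 more than doubled, with a median log2 ratio of 5.71 (CPM with 1 added), against 0.0793 over those 8642 genes. The exceptions were Tal1, a blood and endothelial transcription factor at 0 in the second 12-month library, and Cd34, at 429.8 CPM in the chosen cells of the detrusor-only library and 543.1 in the others. Claudin-5 (Cldn5), the tight junction protein, stood at 2016, 539.6, 696.3, 1385, 1291, 364, 1453 and 982.3 CPM in the order of libraries above. Nos3, which makes nitric oxide in the vessel wall, ran from 40.88 to 189.3 CPM, and 0.2706 to 3.67 in the other cells. The transcription factors Erg (29.12 to 163 CPM), Sox18 (44.85 to 269.1) and the receptor Tie1 (172.2 to 378.6) were likewise higher in all 8.

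**Figure D2:**
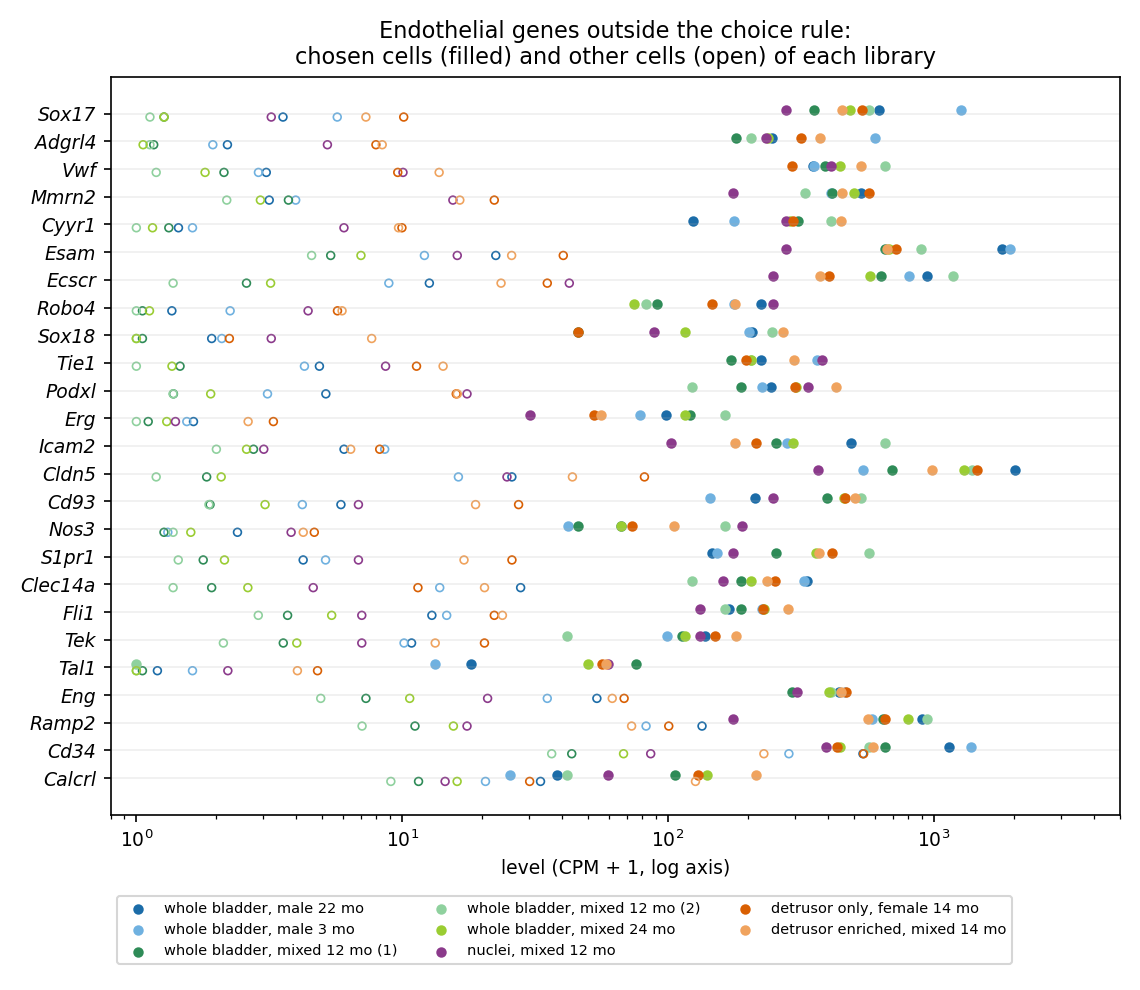
Levels of the 25 endothelial core genes in the chosen cells (filled) and in the other cells (open) of each of the 8 libraries, as CPM with 1 added on a log axis. The chosen cells lie above the other cells of their own library in all 8 for 23 of the 25 genes, and Cd34 and Tal1 are the exceptions.

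The 25 genes with the highest median ratio against the other cells, outside the rule and at 50 CPM or more on average, began with Tmem252, Lrg1, Grrp1, Aqp1 and Sox17. Tmem252, which codes for a small membrane protein, stood at 900.7, 1365, 1378, 855.6, 1986, 43.69, 503.5 and 404.9 CPM (median log2 ratio 8.14), and the nuclei were lowest. Lrg1, a secreted glycoprotein made by venous endothelium, stood at 2885, 2514, 1744, 692.6, 2051, 160.2, 724.7 and 521.4 CPM (7.83), again lowest in the nuclei. Aqp1, the water channel of continuous capillaries, stood at 2979, 3422, 2471, 1793, 2647, 509.7, 2065 and 1995 CPM (7.71), against 1.875 to 96.53 in the other cells. Sox17, a transcription factor of arterial endothelium, stood at 620.5, 1267, 351.9, 570.4, 482.1, 276.7, 537.3 and 448.3 CPM (7.62). Von Willebrand factor (Vwf), which captures platelets, lay within 291.5 to 651.9 CPM in the 8 libraries (6.88). The guidance receptor Robo4 (73.54 to 247.6 CPM, 6.18) and the Notch ligand Dll4 (87.37 to 179.9 CPM, 6.15) were lower in level.
The list also held Adgrl4, Selp, Mmrn2, Cyyr1, Myct1, Cytl1, Esam, Tmem255b, Rasip1, Ecscr, Gkn3, Apold1, Syt15, C1qtnf9, Ackr1, AU021092 and Arhgef15.

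Promoters of some of these genes are shown because transcription factors of the ETS family, to which the core genes Erg and Fli1 belong, read the core GGAA. One motif was searched, CNGGAAG on either strand (CTTCCNG on the other), in the 250 bases before and 50 after each RefSeq start of build GRCm38.p6. It occurred in the promoters of 14 of the 18 named genes with an entry (77.8%) and 9 of the 12 core genes with one (75%). The other genes of these 2 lists of 25 were not searched. Adgrl4, Cyyr1 and Robo4 count in both. Among all genes the motif occurred in 9365 of 27025 (34.7%), and among all promoters in 10476 of 32851 (31.9%). A gene with several starts counts where any of them matches, and the shares were not tested. A match is a description of the letters, not a bound site. Capitals mark the matches. Tmem252 (chr19:24673758-24674057, strand +) and Lrg1 (chr17:56121897-56122196, strand -) have 3 matches each, Ackr1 (chr1:173333454-173333753, strand -) 2, Robo4 (chr9:37401722-37402021, strand +) and Dll4 (chr2:119325534-119325833, strand +) 1 each and Aqp1 (chr6:55336049-55336348, strand +) 0.
Tmem252: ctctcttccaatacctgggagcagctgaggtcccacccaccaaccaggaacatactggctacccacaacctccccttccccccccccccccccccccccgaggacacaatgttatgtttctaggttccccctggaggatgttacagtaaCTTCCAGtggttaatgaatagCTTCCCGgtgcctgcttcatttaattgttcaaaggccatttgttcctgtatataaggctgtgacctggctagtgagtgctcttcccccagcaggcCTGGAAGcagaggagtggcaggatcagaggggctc
Lrg1: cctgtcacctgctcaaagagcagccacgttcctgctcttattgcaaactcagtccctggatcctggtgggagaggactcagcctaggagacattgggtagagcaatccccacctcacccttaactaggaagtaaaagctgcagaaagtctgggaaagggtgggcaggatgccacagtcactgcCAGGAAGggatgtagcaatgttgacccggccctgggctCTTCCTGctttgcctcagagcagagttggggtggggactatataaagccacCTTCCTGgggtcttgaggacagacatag
Ackr1: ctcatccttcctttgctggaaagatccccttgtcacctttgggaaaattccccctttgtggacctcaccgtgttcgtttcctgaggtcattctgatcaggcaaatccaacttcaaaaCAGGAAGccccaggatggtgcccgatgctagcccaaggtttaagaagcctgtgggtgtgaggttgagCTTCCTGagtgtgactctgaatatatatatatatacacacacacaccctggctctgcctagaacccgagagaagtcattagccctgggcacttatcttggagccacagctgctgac
Robo4: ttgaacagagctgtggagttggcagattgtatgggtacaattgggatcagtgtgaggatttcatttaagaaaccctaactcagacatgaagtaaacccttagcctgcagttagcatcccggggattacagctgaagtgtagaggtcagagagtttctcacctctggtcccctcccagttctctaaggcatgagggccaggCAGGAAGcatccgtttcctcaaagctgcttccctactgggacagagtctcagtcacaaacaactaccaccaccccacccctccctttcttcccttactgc
Dll4: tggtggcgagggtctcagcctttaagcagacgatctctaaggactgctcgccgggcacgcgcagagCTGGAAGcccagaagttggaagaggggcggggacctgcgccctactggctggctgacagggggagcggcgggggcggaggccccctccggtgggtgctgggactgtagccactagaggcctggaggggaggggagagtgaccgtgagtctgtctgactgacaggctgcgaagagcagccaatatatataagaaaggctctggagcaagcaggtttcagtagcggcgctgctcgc
Aqp1: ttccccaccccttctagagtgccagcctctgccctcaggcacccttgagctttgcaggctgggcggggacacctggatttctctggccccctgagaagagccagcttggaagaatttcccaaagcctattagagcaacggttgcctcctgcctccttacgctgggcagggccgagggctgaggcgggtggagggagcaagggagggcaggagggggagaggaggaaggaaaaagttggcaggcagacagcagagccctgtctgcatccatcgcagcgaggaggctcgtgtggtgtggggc

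Genes of the 3 vessel types were all present, at levels that differed between libraries. Of the arterial list, 8 of 14 genes were higher than in the other cells of all 8 libraries (median log2 ratio 2.48), of the capillary list 8 of 13 (4.58) and of the venous list 4 of 10 (2.45). Hey1, a Notch target of arteries, ran from 29.12 to 244.5 CPM. Gja4, an arterial gap junction protein, ran from 29.12 to 211.6 CPM. Gkn3, a marker of mouse arterial endothelium, stood at 183, 4.088, 127.3, 1019, 335, 58.25, 185.3 and 96.66 CPM, and only 4 chosen cells stand behind the 1019 of the second 12-month library. Of the capillary genes, Fabp4, a carrier of fatty acids, stood at 3337, 1206, 1011, 3871, 3031, 626.2, 6583 and 3793 CPM, against 19.94 to 215.8 in the other cells. Gpihbp1, which holds lipoprotein lipase on the capillary surface, stood at 823.5, 1570, 52.41, 81.49, 114.4, 87.37, 441.7 and 317.7 CPM, so it was highest in the 2 male libraries. Of the venous genes, Ackr1, the chemokine-binding receptor of venules, stood at 766.3, 417, 651.4, 122.2, 817.1, 14.56, 87.58 and 103.5 CPM. P-selectin (Selp) stood at 451.8, 163.5, 1318, 366.7, 1536, 72.81, 770.4 and 2090 CPM. The 2 venous genes thus ordered the libraries differently, with the detrusor-enriched library highest for Selp and among the lowest for Ackr1.

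Of the other lists, 15 of 19 genes of endothelial signalling were higher in all 8 libraries (median log2 ratio 3.54), as were 14 of 19 transcription factors (3.89) and 9 of 11 genes of junctions and caveolae (2.56). Klf2, the shear stress factor, stood at 6279, 9623, 2808, 3911, 3603, 378.6, 3998 and 2256 CPM and was lowest in the nuclei. Basement membrane genes were higher in all 8 libraries for 2 of 12 genes (0.342) and genes of tip cells and sprouting for 1 of 10 (0.728). Esm1, a gene of sprouting tip cells, stood at 177.3 and 228.9 CPM in the 2 male libraries, at 0 in both 12-month libraries and at 13.96 to 45.46 elsewhere.

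Within the chosen cells, graph clustering in the 4 libraries with at least 100 of them gave 8 groups in the 22-month male library, 7 in the 3-month male library and 9 in each detrusor library. The groups were formed from the 1000 most variable genes of the same cells, so their genes are described and not tested, and each group is one library's. A group with more CPM of arterial than of capillary or venous genes and no excess of other cells' genes occurred in 3 of the 4 libraries. In the 22-month male library it held 38 cells, with 4732 CPM of arterial, 1859 of capillary and 769.8 of venous genes, and led in Gkn3 (995.2 CPM against 37.1 in the other chosen cells), Gja4 (1033 against 64.08) and Cldn5 (8956 against 769). In detrusor only it held 51 cells, with Cytl1 at 2395 against 54.35 CPM, Gkn3 at 1010 against 19.81 and Mgp, an inhibitor of calcification, at 14239 against 1586. In detrusor enriched it held 14 cells, with Cytl1 at 2125 against 27.56, Gkn3 at 946.3 against 12.63 and Mgp at 15076 against 1162 CPM. Cytl1, Gkn3 and Mgp thus lay in the same group of cells in both detrusor libraries.

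Groups high for the venous list occurred in all 4 libraries. In the 22-month male library 33 cells had 13169 CPM of venous genes against 466 of arterial genes, with Ackr1 at 2901 against 264.8 CPM in the other chosen cells, Selp at 1639 against 173 and Tmem252 at 2841 against 444.9. In the 3-month male library 29 cells had 14792 CPM of venous genes, with Ackr1 at 2308 against 44.05 and Selp at 893.5 against 19.58. In detrusor only 80 cells had 5427 CPM of venous genes, the most of that library's groups but below their 8364 CPM of capillary genes, with Ackr1 at 247.6 against 4.499 and Selp at 2020 against 122.1. In detrusor enriched 33 cells had 13259 CPM, with Selp at 8143 against 1085 CPM and Ackr1 at 425.7 against 49.96. Those 33 cells carried 17149 CPM of activation and adhesion genes, a list that shares Ackr1, Selp and Vcam1 (2415 CPM there) with the venous list. They also led in the cytokines Csf3 (374.3 against 2.437 CPM) and Il6 (473.4 against 59.1). Further groups high for the venous list were 42 cells of the 22-month male library (7786 CPM), with Ackr1 at 954.7 CPM, and 30 cells of detrusor enriched (8513 CPM), with Ackr1 at 155.1. The 42 cells also held the lymphatic gene Lyve1 at 223.7 against 3.537 CPM. Their lymphatic genes summed to 372.9 CPM, the most of that library's groups.

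Groups high for the capillary list occurred in all 4 libraries. In the 22-month male library 22 cells carried 46719 CPM of capillary genes, with Fabp4 at 30699 against 579.1 CPM in the other chosen cells, together with Aqp7, Timp4, Cd36 and Car4. In the 3-month male library 17 cells carried 26507 CPM, with Fabp4 at 13978 against 111 and Cldn5 at 5695 against 97.65. In detrusor only the capillary genes were spread over more cells: 47 cells carried 27751 CPM, with Gpihbp1 at 1679 against 289.4, and 50 cells, led by Penk, carried 22451. In detrusor enriched 44 cells carried 14110 CPM of capillary genes and were led by Rgcc and the mural gene Kcnj8, and they also carried 2093 CPM of pericyte and 2120 CPM of smooth muscle genes, the highest of that library's groups for both lists. Fabp4 was thus concentrated in 22 of 195 and 17 of 172 chosen cells of the 2 male whole-bladder libraries.

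Some groups were set apart by genes of other cells. Groups with 45666, 29530, 23007 and 20406 CPM of fibroblast genes held 15, 15, 17 and 7 cells in the 22-month male, 3-month male, detrusor-only and detrusor-enriched libraries. The 17 cells of detrusor only were led by the red cell gene Hbb-bs (7807 against 37.95 CPM) and carried 13914 CPM of red cell genes as well. In the 22-month male library 7 cells carried 28463 CPM of macrophage genes and 3 cells led in Ccl5, Nkg7 and Cd8a, and in the 3-month male library 5 cells carried 11762 CPM of urothelial genes. In detrusor only 13 cells led in the mural genes Rgs5, Kcnj8, Abcc9 and Notch3. A further 19 cells there led in the mitotic genes Top2a and Mki67, which are not genes of another cell type. They carried 9821 CPM of core and 214.6 CPM of fibroblast genes. In the 3-month male library 36 cells led by Kcnj8 carried 1502 CPM of pericyte genes, and in detrusor enriched 37 cells carried 1534, besides the 44 cells above. In detrusor enriched 22 cells led by Upk3a and 48 cells led by Prg2 carried 1266 and 969.1 CPM of urothelial genes. Their red cell genes stood at 1533 and 1277 CPM. All of these stayed among the chosen cells. A repeat of the comparisons left out cells with at least 5 UMIs and 2% of their UMIs from the fibroblast, smooth muscle, macrophage, T cell or urothelial lists. It did not use the pericyte or red cell lists, and no cell passed its limit for urothelial or T cell genes, so it does not remove the mural, urothelial or T cell groups as such.

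**Figure D3:**
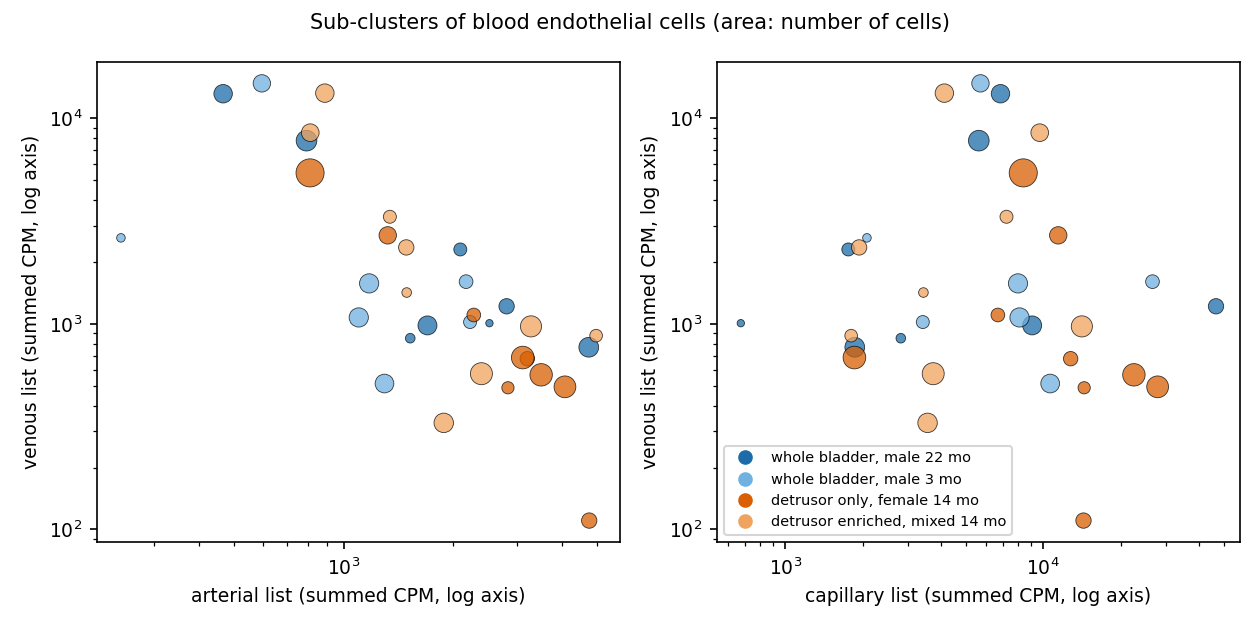
Groups of chosen cells in the 4 libraries with 100 or more of them, by the summed CPM of the arterial and capillary lists and of the venous list, with the area of a point giving the number of cells. Groups with 13169, 14792 and 13259 CPM of venous genes hold 33, 29 and 33 cells in the 22-month male, 3-month male and detrusor-enriched libraries.

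The nuclei comparison asks how endothelial RNA differs when nuclei are taken in place of dissociated cells. It set the 74 chosen nuclei, summed as 1 library, against 4 whole-bladder libraries (the second 12-month library, with 4 chosen cells, was left out because a minimum of 20 was set). The nuclei arm is a single library, so the spread behind every p-value here is that of the cell libraries, and the nuclei are assumed to vary like them. Of the gene lists, 15 of 27 dissociation genes and 5 of 12 antigen presentation genes fell, and all 7 smooth muscle genes tested rose. Of 4341 genes tested, 238 passed an adjusted p of 0.05 (5.48%; edgeR's quasi-likelihood test, Benjamini-Hochberg), 118 higher (2.72%) and 120 lower (2.76%) in the nuclei. Another scaling (median-ratio size factors) gave 307, with 66.8% of them higher in place of 49.6%. The median log2 change over all genes was -0.476, and -0.207 with that scaling, so list medians are to be read against it.

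Of 27 genes known to respond to dissociation, 15 fell, none rose, and the median was -4.22. Fos, an immediate early transcription factor, stood at 0 normalised CPM in the nuclei and at 6942, 8915, 4993 and 6507 in the 22-month male, 3-month male, first 12-month and 24-month cells. It was at least 162-fold lower in the nuclei against a floor of 3 counts per library (adjusted p 0.01252). Socs3, an inhibitor of cytokine signalling, stood at 0 against 2105, 2501, 1999 and 1445 and was at least 47.8-fold lower (adjusted p 0.01423). Atf3, a stress transcription factor, was at 0 against 1132, 1486, 1822 and 2647 and at least 42-fold lower. Jun stood at 182.6 in the nuclei and at 3399, 5288, 2698 and 2768 in the cells (log2 change -4.27). The nuclei lay below every cell library for each of these. The named genes Rnd1, Nr4a1, Fosb, Ctsz and Rgs16 were at 0 in the nuclei too, and at least 19.3, 16.9, 14.9, 8.67 and 6.87-fold lower. In the other nuclei the dissociation list summed to 2844 CPM and in the other whole-bladder cells to 11555 to 31341, so the other nuclei were lower as well.

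Of 12 antigen presentation and interferon genes, 5 fell and none rose (median -2.89). Beta-2-microglobulin (B2m), the light chain of class I molecules, stood at 337.1 normalised CPM in the nuclei and at 7205, 5999, 6115 and 5922 in the cells (log2 change -4.22, SE 0.82, adjusted p 0.03853). Psmb8, a subunit of the immunoproteasome, stood at 70.24 against 884.1, 822.1, 758.3 and 683.7 (-3.47). The other 3 were the peptide transporter Tap1, at least 2.56-fold lower, and the interferon-induced Ifitm3 (-3.62) and Bst2 (-2.80). The list summed to 1499 CPM in the other nuclei and to 5122 to 25471 in the other whole-bladder cells, so the other nuclei were lower here too.

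Of 8 venous genes, 2 fell. Ackr1 stood at 14.05 normalised CPM in the nuclei, from 1 UMI, and at 819.9, 436.8, 856.7 and 1103 in the cells, a ratio of 57.2 with a counting interval of 10.3 to 2261 (adjusted p 0.03046). Lrg1 stood at 154.5 against 3087, 2633, 2294 and 2768 (log2 change -4.12, SE 0.78, adjusted p 0.03853). Tmem252 stood at 42.14, from 3 UMIs, against 963.7, 1430, 1812 and 2680, a ratio of 40.8 with an interval of 14 to 198 (adjusted p 0.03853). The nuclei were below all cell libraries for the 3 genes. Of 25 core genes (median -0.714), 11 arterial genes (-0.916) and 10 capillary genes (-2.44), none passed.

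All 7 tested genes of smooth muscle rose (median 6.26). Myh11, the smooth muscle myosin, stood at 1798 normalised CPM in the nuclei and at 18.36, 4.282, 39.39 and 22.06 in the cells (log2 change 6.53, SE 0.64, adjusted p 0.008605). Desmin (Des), the intermediate filament of muscle, stood at 1292 against 24.47, 17.13, 9.848 and 11.03 (6.15). The other named genes that rose, besides Lama4 below, were Actg2, Cnn1, Synpo2, Acta2, Tagln, Acta1, Ccl21a, a chemokine of lymphatic vessels, Magi3, Dock4 and Ccdc88c. The chosen nuclei carried 10718 CPM of these 7 genes and the other nuclei of the library 21503. The 7 lymphatic genes, Ccl21a among them, summed to 349.5 CPM in the chosen nuclei and 208.6 in the other nuclei. In the chosen cells of the other libraries they summed to 0 to 108.7. The part of RNA from other nuclei, or of lymphatic nuclei among the chosen ones, in these rises was not tested. Of 11 basement membrane genes, 1 rose: Lama4, a laminin chain of vessels, at 309.1 against 45.89, 38.54, 29.54 and 33.08 (2.99, SE 0.49, adjusted p 0.02818).

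These calls depend on each cell library. With the stricter rule (6 UMIs and 0.30%) the first 12-month library also fell under 20 chosen cells and left the fit, so the rule and the set of libraries changed together. In that fit 25 of 35 named genes lost their call, with an adjusted p of 0.07444 for Ackr1, 0.08256 for Lrg1, 0.07981 for Tmem252 and 0.0736 for B2m. With the detrusor cells in place of the whole-bladder cells 27 of 39 lost it, with 0.06985 for Ackr1 and Lrg1 and 0.06527 for B2m. DESeq2 gave 0.06949 for Bst2 and 0.1569 for Tap1. Without the 22-month male library 15 genes passed, without the 3-month male library 23, without the 12-month library 82 and without the 24-month library 85. Of the named genes tested, 34 of 39, 29 of 40, 13 of 40 and 12 of 40 lost their call, and Myh11 passed in all 4. Without the 22-month male library the adjusted p was 0.07311 for Fos, 0.06831 for Socs3 and Lama4, 0.0717 for Ackr1, 0.1148 for Lrg1, 0.1476 for B2m, 0.09323 for Psmb8, and 0.06831 for Atf3. Jun had 0.1306, 0.0646, 0.05649 and 0.05771 and Tmem252 0.09337, 0.06428, 0.05478 and 0.0508 without the 22-month male, 3-month male, 12-month and 24-month library. Tap1, Ifitm3 and Bst2 lay between 0.06027 and 0.1632 in these 4. Without the 3-month male, 12-month or 24-month library it was 0.0646, 0.05538 and 0.05681 for Lrg1 and B2m and 0.05687, 0.05743 and 0.05681 for Psmb8, and Lama4 had 0.06159 without the 3-month male library. The nuclei and the cells also differ in their gene lists (31053 genes in the nuclei and detrusor tables, 27775 or 27998 in the whole-bladder tables). Of the 238 calls, 10 (4.2%) were of genes at least 10 times apart between the 2 kinds of table in all barcodes, among them Synpo2, Dock4, Ccdc88c and Tonsl, and Myh11 among those named above. For these the preparation and the gene list cannot be told apart. As the gene list goes with the arms for every call, the same holds for the remaining calls. Age and sex mix differ as well: the nuclei came from 12-month mice of both sexes. The cells came from male pools of 3 and 22 months and mixed pools of 12 and 24 months.

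**Figure D4:**
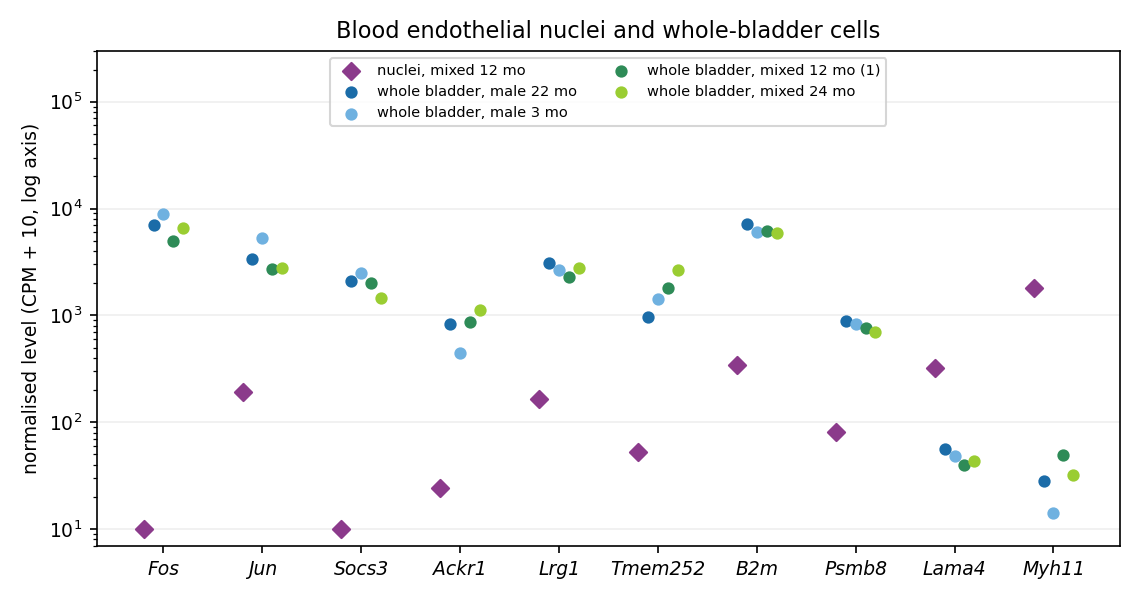
Normalised CPM with 10 added (log axis) of 10 genes in the chosen nuclei (diamond) and in the chosen cells of 4 whole-bladder libraries. Fos and Socs3 are at 0 in the nuclei, and Myh11 and Lama4 are higher in the nuclei than in all 4 cell libraries.

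Whether the nuclei change differed from that of fibroblasts was tested in 1 model over both cell types. Fibroblasts needed at least 4 UMIs and 0.5% of UMIs of Col1a1, Col1a2, Col3a1, Dcn, Lum and Pdgfra together (19478 cells in the 8 libraries). The water channel Aqp1, Ecscr and the caveolar genes Cav1 and Cavin2 had a lower change in endothelial cells than in fibroblasts. Of 10260 genes, 34 differed (0.331%), 33 with a lower change in endothelial cells (0.322%) and 1, Tpm2, with a higher one (0.00975%). The nuclei of both cell types come from the same single library, so the spread is again that of the cell libraries. A library term matched the 2 sums of each library, and no library was left out in turn. Aqp1 went from 2979, 3422, 2471 and 2647 CPM in the endothelial cells to 509.7 in the endothelial nuclei, while in fibroblasts it stood at 17.83, 9.56, 19.46 and 14.74 in the cells and 76.17 in the nuclei (difference of log2 changes -5.06, SE 0.55, adjusted p 0.000395). Ecscr, an endothelial regulator of migration, went from 943.6, 805.4, 628.9 and 572 to 247.6 CPM in endothelium (difference -3.57). The membrane protein Tm4sf1 (-3.15) and the caveolar coat proteins Cav1 (-2.72) and Cavin2 (-1.91) differed the same way. Podxl (-3.31), a sialomucin of the cell surface, did not fall in endothelium (log2 change 0.1786) and rose in fibroblasts (2.675). Of the 33 genes, the endothelial change was below 0 in 28 and the fibroblast change above 0 in 22, and 14 passed the test in fibroblasts and 7 in endothelial cells. In fibroblasts alone 24% of 13081 genes passed, 8.71% higher and 15.3% lower in the nuclei. The part of endothelial RNA in the fibroblast nuclei was not tested.

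The detrusor comparison set the 2 detrusor libraries of 14 months against the same 4 whole-bladder libraries, so the 2 comparisons share them. The detrusor-enriched library is itself labelled a whole bladder, so the tissue taken also differs within the detrusor arm. Its other cells carried 2772 CPM of urothelial genes, against 28.1 in those of detrusor only. Of the gene lists, 3 basement membrane genes and 3 signalling genes rose and 2 venous genes fell. Of 5508 genes tested, 606 passed (11%), 450 higher (8.17%) and 156 lower (2.83%) in the detrusor cells, and the median change over all genes was -0.0611. Age, sex, the tissue taken and the table's gene list differ between the arms together and cannot be told apart.

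Of 12 basement membrane genes, 3 rose and none fell (median 1.04). Col4a1, a chain of type IV collagen, stood at 430.2 and 478.3 normalised CPM in the detrusor-only and detrusor-enriched cells and at 146, 72.88, 90.18 and 201.5 in the whole-bladder cells (log2 change 1.85, SE 0.38, adjusted p 0.02759). Lama4 stood at 94.81 and 92.81 against 38.42, 32.8, 27.05 and 30.22 (1.48), and Col4a2 rose by 1.49. The detrusor libraries lay above every whole-bladder library for Col4a1 and Lama4. The other cells of these libraries carried 268.7 and 268.3 CPM of Col4a1, and its level in the chosen cells was 360.9 and 438.9 on the same scale.

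Of 18 signalling genes 3 rose and none fell (median 0.639). Bmpr2, a receptor for bone morphogenetic proteins, stood at 250.1 and 316.6 normalised CPM against 56.35, 47.37, 135.3 and 90.67 (log2 change 1.88, SE 0.40, adjusted p 0.02871). Adgrf5, an adhesion receptor of endothelium, stood at 767.1 and 686.1 against 143.4, 185.9, 288.6 and 423.1 (1.51, SE 0.41, adjusted p 0.04649). Smad7, which inhibits signalling by that receptor family, rose by 1.66. The groups did not overlap for Bmpr2 and Adgrf5. Of 18 transcription factors and 12 capillary genes 1 rose, shares near or below the 8.17% of all genes. It was Meox2, a homeobox factor of endothelium that stands on both lists, at 240.6 and 136.7 against 61.48, 47.37, 81.16 and 100.7 (1.46, SE 0.38, adjusted p 0.0424). None of 25 core genes (median 0.27) or 12 arterial genes (0.492) passed.

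Of 9 venous genes 2 fell, against a list median of 0.636. Ackr1 stood at 104.4 and 112.7 normalised CPM in the detrusor cells and at 686.5, 371.7, 784.6 and 1007 in the whole-bladder cells (log2 change -2.71, SE 0.45, adjusted p 0.01717). Lrg1 stood at 863.9 and 568.3 against 2585, 2241, 2101 and 2529 (-1.72, SE 0.43, adjusted p 0.04). Both detrusor libraries were below all 4 whole-bladder libraries for the 2 genes. Of 12 antigen presentation genes 1 fell, B2m, at 1272 and 1449 against 6032, 5105, 5600 and 5410 (-2.03, SE 0.45, adjusted p 0.03227). Of 11 activation genes 1 fell, Ackr1 again, and 1 rose, near that 8.17%. The gene that rose, Icam1, the adhesion receptor for leukocyte integrins, stood at 333.3 and 772.7 against 107.6, 87.46, 162.3 and 181.3 (2.08, SE 0.41, adjusted p 0.02511).

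Among the largest changes by size, Egr3, an immediate early factor downstream of growth factor signalling, stood at 92.79 and 203.3 normalised CPM in the detrusor cells and at 0 in all 4 whole-bladder libraries, at least 7.8-fold higher (adjusted p 0.01697). Pde2a, a cyclic nucleotide phosphodiesterase, stood at 16.14 and 11.96 against 158.8, 229.6, 135.3 and 211.6 (log2 change -3.70, SE 0.39, adjusted p 0.004826). Cd14, a receptor for lipopolysaccharide, stood at 14.12 and 25.62 against 248.5, 156.7, 360.7 and 191.4 (-3.57, SE 0.47, adjusted p 0.007292). Heca rose too, and Pelo, Jchain and Cfb fell. The other 13 of the 20 largest changes were of genes at least 10 times apart between the tables of 31053 genes and the older tables in all barcodes: Mia2, Zfp445, Shank3, Fbxl7, Lars2, Zfp366, Dock4 and Dgkh were higher and Atp5o, Tonsl, Fdx1l, Hgs and Rpl13a lower. That criterion was chosen after the values were seen. Over the whole list, 380 of 26347 genes met it and 22 of the 606 calls (3.63%). The gene list goes with the arms for every call, so it cannot be told apart from the detrusor in the remaining calls either.

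Genes of other cells moved with this comparison. Of 6 smooth muscle genes 4 rose (median 3.69), with Des at 280.9 and 119.6 normalised CPM and Myh11 at 305.6 and 196.4 in the detrusor cells. Myh11 is among the genes at least 10 times apart between the 2 kinds of table in all barcodes, so for it too the detrusor and the gene list cannot be told apart. Of 3 pericyte genes 1 rose, Abcc9, at 46.9 and 73.45 (log2 change 2.43). The summed pericyte list stood at 341.8 and 844.4 CPM in the detrusor cells and at 65.37 to 445.6 in the 4 whole-bladder libraries. Their part in the rise of the basement membrane genes was not tested. Of 28 dissociation genes 2 rose, Ier3 (1.51) and Gadd45b (2.14), a share below the 8.17% of all genes, and none fell (median 0.333).

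The detrusor calls depended on both detrusor libraries and both male libraries, and the named genes depended little on the mixed-sex whole-bladder libraries. Of the named genes tested, 25 of 35 and 16 of 37 lost their call without the 22-month and the 3-month male library. Without the 12-month library 2 of 37 lost it, and without the 24-month library 0 of 36. Without detrusor only 3 genes passed and without detrusor enriched 5, and without the 22-month male, 3-month male, 12-month and 24-month libraries 26, 106, 832 and 1042. In the order without detrusor only, detrusor enriched and the 22-month male library, the adjusted p was 0.2652, 0.2431 and 0.05804 for Ackr1, 0.3382, 0.453 and 0.101 for Lrg1, and 0.3683, 0.3572 and 0.09789 for B2m. It was 0.2652, 0.2505 and 0.06802 for Col4a1, 0.353, 0.3235 and 0.0927 for Adgrf5 and 0.08499, 0.3303 and 0.07102 for Icam1. Without the 3-month male library it was 0.0593 for Lrg1, 0.05286 for B2m, 0.05419 for Col4a1, 0.08092 for Adgrf5 and 0.05422 for Icam1, and Adgrf5 had 0.0609 without the 12-month library. Meox2 had 0.4357, 0.2394, 0.101 and 0.08194, Bmpr2 0.2511, 0.2947, 0.07616 and 0.05825, Lama4 0.3326, 0.3081, 0.06802 and 0.0593, Col4a2 0.2659, 0.3149, 0.06613 and 0.06496, and Smad7 0.2106, 0.3149, 0.06994 and 0.05472 without detrusor only, detrusor enriched, the 22-month and the 3-month male library. Egr3 had 0.05142, 0.1366 and 0.06171 without the first 3 of these, and Abcc9 0.3326 without detrusor only and 0.05969 without the 3-month male library. Pde2a and Cd14 had 0.08135 and 0.1327 without detrusor only and 0.07979 each without detrusor enriched. With the stricter rule, which also left out the first 12-month library, Lrg1 had 0.05386, Adgrf5 0.0649, Abcc9 0.06022 and Ier3 0.06838, and against mixed-sex libraries alone Meox2 had 0.1051.

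Against fibroblasts, 10 of 12272 genes had a detrusor change that differed in endothelial cells (0.0815%), 6 with a higher change (0.0489%) and 4 with a lower one (0.0326%). Ackr1 was one of the lower ones: fibroblasts held 11.1, 4.412, 18.71 and 12.28 CPM in the whole-bladder libraries and 5.644 and 11.37 in the detrusor libraries, and the difference of log2 changes was -2.33 (SE 0.38, adjusted p 0.01927). Cd36, a fatty acid transporter, went from 300.2, 384.3, 142.3 and 245.1 CPM to 597 and 400.8 in endothelium and from 23.47, 22.5, 5.613 and 14.07 to 4.989 and 8.891 in fibroblasts (2.19, SE 0.36, adjusted p 0.01927). Csf2rb, a cytokine receptor chain, went from 97.21, 106.3, 179.7 and 187.9 to 248.3 and 229.9 in endothelium (2.06). In fibroblasts it was low, at 2.761, 2.206, 2.619 and 3.126 against 1.091 and 1.381. Neither gene passed in endothelium alone (edgeR adjusted p 0.0675 for Cd36 and 0.1854 for Csf2rb) or in fibroblasts alone (0.1435 and 0.1589). In fibroblasts alone 6.26% of 13599 genes passed, 4.38% higher and 1.88% lower in the detrusor libraries. Kcnn4, Actg2, Sbno2 and Zfp36 were also higher in this sense, and Lcn2, AU021092 and Jam2 lower. With median-ratio size factors 6 genes differed, and Cd36, Csf2rb, Actg2 and Lcn2 had an adjusted p of 0.05263.

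The age comparison set the 22-month and 24-month libraries against the 3-month male and first 12-month libraries, with a term for the sex mix. That term also separates tables of 27775 genes (male) from tables of 27998 (mixed). Depth splits the same way, with median UMIs per chosen cell of 1613 and 1196 in the male and 5883 and 4928 in the mixed libraries. These cannot be told apart from sex. Fabp4 rose and 3 urothelial genes fell in the older cells. Of 3442 genes 20 passed (0.581%), 4 higher (0.116%) and 16 lower (0.465%), and 223 had an unadjusted p under 0.05. Fabp4 stood at 3347 and 4067 normalised CPM in the older cells and at 1208 and 1330 in the younger ones (log2 change 1.54, SE 0.33, adjusted p 0.04589). The other cells of these libraries had 38.7 and 31.88 CPM against 42.2 and 19.94. Ifi27l2a, an interferon-induced gene, stood at 289.6 and 559 against 73.7 and 197 (1.74, SE 0.34, adjusted p 0.02558). In the other cells Ifi27l2a stood at 490.2 and 117.7 CPM against 156.8 and 76.05, higher in the older library of each sex mix as well. Groups did not overlap for either gene, which for Ifi27l2a was a condition of being named.

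Cytl1, a secreted factor, was called higher although its groups overlapped, at 209.3 and 1085 against 40.94 and 285.6 (2.09, SE 0.35, adjusted p 0.01195, edgeR). Of 5 fibroblast genes 1 was called higher, Col1a1, and its groups overlapped too. All 5 had a change above 0 (median 1.12). Of 6 urothelial genes 3 fell (median -1.8), among them Krt15, at 143.4 and 252.1 against 569.1 and 1389 (-2.20), and Upk1a, a urothelial membrane protein, at 43.02 and 98.65 against 270.2 and 403.8 (-2.38, SE 0.39, adjusted p 0.01195). The other named genes that fell were Aldh3a1, Aqp3, Cldn4, Acaa1b, Foxq1, Sprr1a and Ly6d. Rgs5, a pericyte gene, stood at 60.22 and 54.81 against 278.4 and 167.4 (-2.03). The chosen cells of the 22-month, 24-month, 3-month and 12-month libraries carried 363.1, 670, 1603 and 2583 CPM of urothelial genes and their other cells 4837, 9630, 8491 and 12071. The part of urothelial RNA in these calls was not tested. None of 24 core genes (median 0.17) or 9 arterial genes (0.635) passed, and 1 of 10 capillary genes did, Fabp4.

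With 4 libraries, 1 residual degree of freedom is left, and no library could be left out. DESeq2 gave 0 calls (39 with an unadjusted p under 0.05), as did edgeR without the called doublets (186), with Flt4 dropped from the rule (209) and without the sex term (27). Fabp4 had an adjusted p of 0.05101 with median-ratio size factors. In the frozen sections Fabp4 stood at 1485 and 2111 CPM at 22 months and at 971.9 and 647.9 CPM at 14 months, over 1317, 1038, 937 and 1123 spots. A spot holds several cells and other cell types also make Fabp4, so its cells are not known there, and the difference was not tested. The 8 rule genes summed to 251.3 and 228.8 CPM at 22 months and 247.4 and 217.3 at 14 months, and 84.33 to 89.01% of spots held at least 1 of their UMIs. The core genes stood at 615.4, 605.6, 592.1 and 580.9 CPM, so the 4 sections lay close together in endothelial RNA. Ackr1 was low in all 4, at 7.776, 5.689, 7.872 and 4.653 CPM.

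The bulk samples ask what dissociation does to the endothelial genes of the whole bladder. The rule did not use these samples. A bulk value moves with the number of endothelial cells and with the RNA per cell, which cannot be told apart. Most endothelial core genes rose on dissociation, Selp, Ackr1 and Icam1 rose too, and Fabp4, Tmem252, Mcam and Cav1 fell. Of 16538 genes 9798 passed (59.2%), 27.9% higher and 31.3% lower in the dissociated samples, with a median log2 change of -0.0288, so a share of calls near these is the background.

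Of the 25 core genes 21 rose and none fell (median 1.02), and of the 8 rule genes 6 rose (median 0.924). Pecam1 stood at 105.3, 87.67 and 90.31 normalised CPM in the intact and at 192.6, 187.5 and 219.5 in the dissociated samples (log2 change 1.08, SE 0.10, adjusted p 9.875e-05, edgeR). Ptprb stood at 68.95, 77.82 and 82.3 against 204.8, 183.7 and 255 (1.49, SE 0.13, adjusted p 7.733e-05). Nos3 stood at 9.808, 7.555 and 11.81 against 40.55, 34.28 and 56.62 (2.18, SE 0.23, adjusted p 0.0001741). The groups did not overlap for these 3. The rule genes did not move alike: Plvap had 50.85, 35 and 45.41 against 56.3, 49.62 and 75.27 (0.47, adjusted p 0.06027) and Egfl7 46.51, 33.4 and 40.43 against 31.86, 31.08 and 37.44 (-0.26, adjusted p 0.1307), and both pairs of groups overlapped.

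Of 14 arterial genes 11 rose and 1 fell (median 0.921), and of 13 capillary genes 4 rose and 1 fell (0.238), a share of rises near the background. Of 10 venous genes 6 rose and 1 fell (1.21), and of 12 activation genes 11 rose and 1 fell (2.91). Ackr1, Selp and Vcam1 stand on both lists and are counted in each. Selp stood at 8.545, 5.171 and 5.165 normalised CPM in the intact samples (6.294 ± 1.95, SD, n = 3) and at 251.3, 196.4 and 261.9 in the dissociated ones (236.5 ± 35.16), a log2 change of 5.26 (SE 0.23, adjusted p 3.369e-06, edgeR). Ackr1 stood at 6.44, 5.38 and 5.939 against 37.84, 29.87 and 38.22 (2.58, SE 0.13, adjusted p 5.476e-06). Icam1 stood at 34.68, 36.57 and 37.63 against 400.7, 309.2 and 289.8 (3.20, SE 0.14, adjusted p 2.656e-06). The dissociated samples lay above all intact ones for these 3 venous and adhesion genes. The transcription factors Klf4 and Klf2 rose by 4.14 and 2.28, and all 28 genes of the dissociation list rose (median 3.67).

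Against this, Fabp4 stood at 255, 238.7 and 287 normalised CPM in the intact samples and 52.85, 50.97 and 80.51 in the dissociated ones (log2 change -2.08, SE 0.19, adjusted p 7.894e-05, edgeR). Tmem252 stood at 253.8, 252.7 and 227.4 against 64.73, 56.89 and 61.86 (-2.0, SE 0.09, adjusted p 2.906e-06). Mcam, an adhesion molecule that pericytes and smooth muscle also carry, stood at 369.8, 361.9 and 349.7 against 79.21, 84.43 and 85.58 (-2.12, SE 0.08, adjusted p 1.493e-06). Cav1, the caveolar coat protein, stood at 694.9, 683.1 and 763.4 against 330.6, 384.5 and 299.5 (-1.08, SE 0.11, adjusted p 0.0001586, edgeR). Fibroblasts carried Cav1 too, at 182.8, 124.6, 131.7 and 178.8 CPM in the 22-month male, 3-month male, first 12-month and 24-month libraries. Groups did not overlap for any of the 4, and Gpihbp1 gave a log2 change of 0.0044 (adjusted p 0.9894). The genes of other cells moved as well: all 7 smooth muscle genes fell (median -3.98) and all 7 fibroblast genes rose (1.21). Of 7 pericyte genes 2 rose and 4 fell (-0.635), and of 6 lymphatic genes 6 rose (0.987). All 4 red cell genes (2.15) and all 7 macrophage genes (0.534) rose, 2 of 6 T and natural killer genes rose (1.39), 4 of 7 urothelial genes fell and 1 rose (-0.948), and all 3 Schwann cell genes fell (-0.548). Their part in the endothelial changes was not tested.

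**Figure D5:**
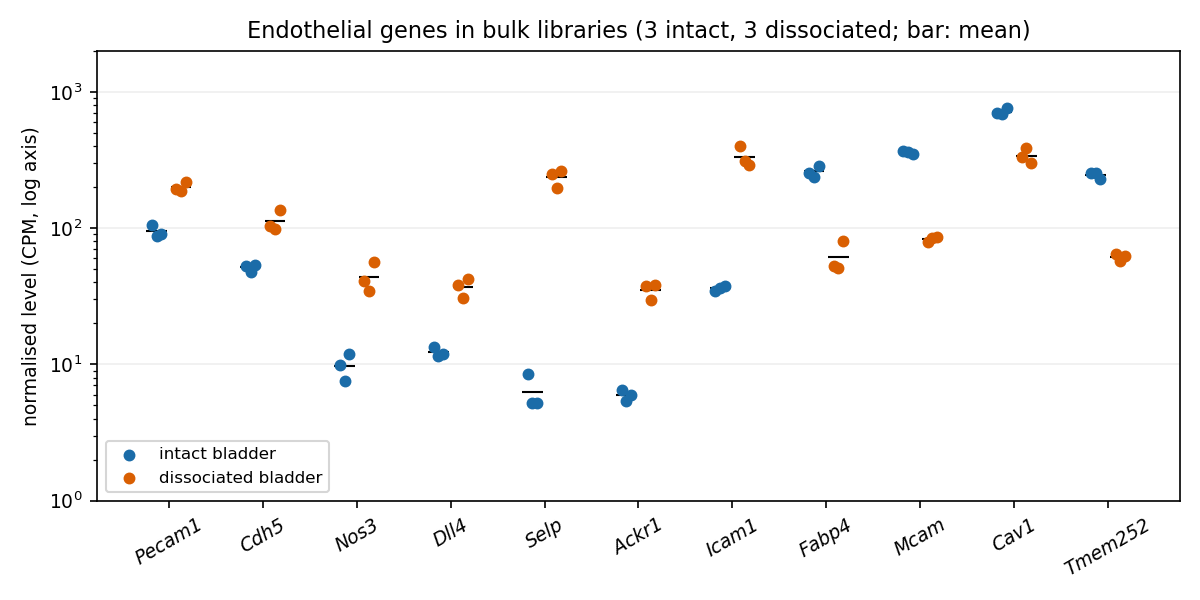
Normalised CPM (log axis) of 11 genes of endothelium, some of which other cells also carry, in 3 intact and 3 dissociated bulk samples, with the mean as a bar. Selp and Icam1 are higher in the dissociated samples and Fabp4, Tmem252, Mcam and Cav1 lower, with no overlap in these 6.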

How the data were processed

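The authors deposited UMI count tables per barcode for 8 droplet libraries, count tables per spot for 4 sections and read counts per gene for 6 bulk samples. Per the submitters' processing notes, Cell Ranger, Space Ranger, bcl2fastq, Subread and featureCounts were used with mm10; annotation versions are not given in the sources used here. The tables list 27775, 27998 or 31053 genes. All counts were used as deposited.

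Members and gene lists were chosen with earlier results of these data known. Counts of chosen cells were summed per library over the 26347 genes common to all tables, without mitochondrial genes, and tested in R 4.3.3 with edgeR 4.0.16 (robust quasi-likelihood, TMM scaling, filterByExpr, two-sided, Benjamini-Hochberg over all genes tested). The 11 genes of the rule were not tested in the cell comparisons. The replicate is the library, and a library needed 20 chosen cells. SE is the absolute log2 change divided by the square root of F. Normalised CPM are TMM-scaled within a comparison, and other CPM are unscaled. Clusters came from scanpy 1.11.5 (Leiden with igraph 0.11.9, resolution 1, 15 neighbours, 20 components, 1000 variable genes), and doublet scores from Scrublet in scanpy, marking the top 0.8% per 1000 barcodes. The work also used Python 3.11.15, scipy 1.17.1 and DESeq2 1.42.0. Bulk depth was 23083752 to 68760791 counts. Intervals and floors of 3 counts per library cover counting error only.

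Named genes were the 25 with the highest median ratio to other cells (at 50 CPM on average or more, higher in all 8 libraries), up to 10 in each direction by fitted change among called genes at 10 CPM or more without overlap, and members of the lists. Alternatives were DESeq2, median-ratio size factors, no filter on low counts, looser and stricter rules, removal of doublets or of cells with other cells' genes, another Leiden resolution, a replicate block and leaving out each library. Lack of overlap between groups was a condition for genes named by size of change. The share of all tested genes without overlap was not computed, so this property is a description only. Same-numbered bulk samples were not paired by the labels.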

Additional observations from a re-analysis of the deposited data

Results flagged for a closer look

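Among the chosen cells, 3 summed levels of other cells' genes stood apart from the rest of their group of libraries: macrophage genes at 2665 CPM and T and natural killer genes at 163 CPM, both in the 22-month male library, and red cell genes at 5744 CPM in the 24-month library, all from 1 of its 22 chosen cells. Chance flags about 1 in 20 groups, and 28 were tested.

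The test of a difference between cell types gave 34 genes for the nuclei and 10 for the detrusor. For the nuclei, the endothelial log2 change minus the fibroblast one was -11.1 for Npdc1 and -10.5 for Ctsz, both without a UMI in the endothelial nuclei, so these fitted values are no bound. With median-ratio size factors the adjusted p (edgeR) was 0.137 for Ctsz and 0.2291 for Pcp4l1. It was -8.32 for Pcp4l1, -6.21 for Stc1, -5.90 for Lmcd1, -5.06 for Aqp1, -4.97 for Tinagl1, -4.41 for Gpr146, -3.78 for Emp1, -3.57 for Ecscr and 1.83 for Tpm2. For the detrusor it was -4.55 for Lcn2, -2.54 for AU021092, -2.33 for Ackr1, -1.91 for Jam2, 1.72 for Zfp36, 2.06 for Csf2rb, 2.12 for Sbno2, 2.19 for Cd36, 3.53 for Actg2 and 3.67 for Kcnn4.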

How the results depend on the processing

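The share of chosen cells, 2.75%, was 3.057% with 3 UMIs and 0.10%, 2.314% with 6 UMIs and 0.30% and 2.587% at 1000 UMIs or more. By library it left its interval in 1, 4 and 3 of 8 under these settings, among them the nuclei in each. The 238 nuclei calls became 827 with no filter on low counts (33.7% higher in place of 49.6%), 25 with the stricter rule (72%), which also left out the first 12-month library, 1083 against mixed-sex cell libraries alone, 49 against the detrusor cells (20.4%; added after seeing the data), 348 without cells carrying other cells' genes (39.9%), 160 with DESeq2 (59.4%) and 15 to 85 with 1 library left out. The 20 age calls became 47 with no filter (48.9% higher in place of 20%) and 43 without cells carrying other cells' genes, among them all 13 named genes tested. They became 0 with DESeq2, without doublets, with Flt4 dropped from the rule (added after seeing the data) and without the sex term. The 606 detrusor calls became 1300 with no filter, 3 to 1042 with 1 library left out, 676 against mixed-sex libraries (48.8% higher in place of 74.3%) and 718 with DESeq2 (58.1%). The 10 genes whose detrusor change differed from fibroblasts became 6 with median-ratio size factors and 122 with no filter. At resolution 0.5 the 3-month male library gave 4 groups and the detrusor-only library 5. None of the named genes and single values computed under these settings changed sign, while the split of higher and lower calls did shift as given. The causes were not tested.

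Of 40 named nuclei genes, DESeq2 kept 34 as calls, and all 38 named detrusor genes kept theirs. Adding 10 CPM moved 17 of the 25 ratios to other cells. With the replicate block the bulk samples gave 49 endothelial genes higher (48 without) and 10011 calls in all, and 144 of 145 named genes kept their call. The numbers share no pairing in the labels, and their correlations of 0.203, 0.344 and -0.0702 do not pair them. A nuclei comparison with 12-month cells alone and, for age, the stricter rule and leaving out a library were not run, since 2 or 3 libraries remained. Depth limits what the nuclei show: with a median of 817 UMIs, a gene at 0 there is bounded only by the floor of 3 counts.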

Other observations

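Rbp7, a retinol-binding protein of endothelium, stood at 0 normalised CPM in the chosen nuclei and at 336.5, 381.1, 98.48 and 253.6 in the 22-month male, 3-month male, 12-month and 24-month cells, at least 6.35-fold lower. Esm1 was uneven between groups of chosen cells: 35 cells of the 22-month male library held 1021 CPM against 26.95 in the other chosen cells, and 48 cells of detrusor enriched held 326 against 27.77. These 48 cells also led in the keratins Krt8, Krt19 and Krt15 and carried 969.1 CPM of urothelial genes. In the 3-month male library 36 cells led by the mural gene Kcnj8 (289.5 against 5.281 CPM) also held the interferon-induced Ifit1, at 3076 against 306.3 CPM. The sections carried 2114, 2666, 1594 and 1196 CPM of the capillary list (22 months, then 14 months) and 449, 427.6, 446 and 561.4 CPM of the arterial list. Fabp4 alone gave 1485, 2111, 971.9 and 647.9 CPM of the capillary sums, and other cell types also make it.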
